A study of Saccharomyces cerevisiae with 12 samples.

Results

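The 5 genes CTT1 (YGR088W), CTA1 (YDR256C), CCP1 (YKR066C), SOD1 (YJR104C) and SOD2 (YHR008C) encode the catalases, the cytochrome c peroxidase and the superoxide dismutases of Saccharomyces cerevisiae. They were taken by their open reading frame (ORF) names from the 6150 ORFs of the array table, and all 5 had a value on each of the 12 arrays. The cells were BY4741, a haploid laboratory yeast in which URA3, MET17, LEU2 and HIS3 are deleted wholly or partly, grown beforehand on glucose and then held on membranes on solid YP acetate medium, a carbon source that has to be respired. They were put under nitrogen (N2), which takes away oxygen, or under carbon monoxide (CO), which takes away oxygen and also binds reduced heme iron. RNA was sampled at 15, 30, 45, 60 and 120 min and at 24 h, and each gas and time had 1 array. Each 2-colour array carried amplified RNA from the cells in gas, in Cy5, against that from cells in room air for an equal time, in Cy3.

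Catalases split hydrogen peroxide into water and oxygen, cytochrome c peroxidase reduces it with electrons from cytochrome c, and superoxide dismutases turn superoxide into hydrogen peroxide and oxygen. CTT1 encodes the cytosolic catalase T, CTA1 the catalase A of peroxisomes and mitochondria, and CCP1 the peroxidase of the mitochondrial intermembrane space; all of these enzymes carry heme. SOD1 encodes the copper and zinc dismutase of the cytosol and intermembrane space, and SOD2 the manganese dismutase of the mitochondrial matrix. In respiring yeast, superoxide arises mainly at the respiratory chain, and the genes of this defence are known to respond to heme, oxygen, carbon source and stress.

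Every value below is a log2 ratio of gas over air as deposited, where a value of 1 is a 2-fold higher ratio. The labels give neither the base nor the direction outright, so base 2 was inferred from how far the values reach and the direction, gas over air, from the dyes; the arrays all correlated positively over ORFs (r of 0.326 to 0.856). Array medians lay between -0.17 and 0.01, and the SD over ORFs widened from 0.337 and 0.342 at 15 min to 1.28 and 1.19 at 24 h under N2 and CO. The 48 values of the 4 genes deleted wholly or partly ran from -0.91 to 0.67 with an SD of 0.317; a gene deleted in part can still give signal. A ratio is relative to the rest of the RNA on its array, so more copies of a transcript per cell and fewer copies of the others cannot be told apart. The precision is limited by the number of arrays, and no p-value measures the spread between cultures of 1 gas and time. For each gas against air they measure the spread between exposure times. For CO against N2 they measure the spread of the gas difference over times. In the comparisons over time they rest on a mix of differences between times and between gases.

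SOD1 and CCP1 rose in both gases, CTT1 rose under N2, and CTA1 and SOD2 passed the test in neither gas. The fits covered the 5672 ORFs with a value on all arrays (limma, Benjamini-Hochberg adjustment, adjusted p under 0.05). Of the 5 genes, 3 were called higher under N2, where 17.6% of all ORFs were called higher and 20.2% lower. In CO 2 were called higher, where 12.7% of all ORFs were called higher and 19.4% lower. None of the 5 was called lower in either gas. Their median difference was 0.63 under N2 and 0.22 under CO, while that of all ORFs was -0.02 and -0.04. SOD1 and CCP1 stood above 0 on all 12 arrays, a pattern that 11% of all ORFs had, and 0 of the 5 stood below 0 on all 12, which 13.6% of all ORFs did. Gas was in Cy5 on every array, so a constant dye effect of a gene does not cancel in these comparisons with air. Subtracting the 15 min ratios removes such an effect, and also any change present by 15 min. The fit then has fewer arrays. The error of 1 array per gas enters every later value, and the SE does not count it. The part of a dye effect in calls kept or lost by the subtraction was therefore not tested. That subtraction left 1 of the 5 called under N2 and 1 under CO.

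**Figure D1:**
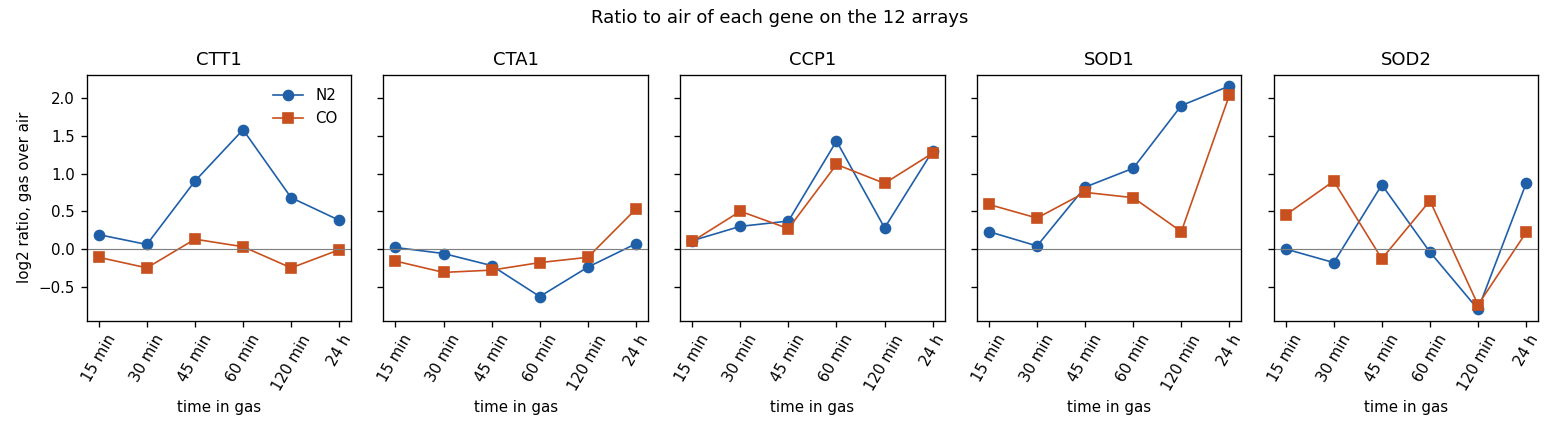
Log2 ratio of gas over air (y axis) of the 5 genes at each exposure time (x axis, in order and not to scale), with 1 array per point, N2 as circles and CO as squares. CTT1 under N2 stands above CTT1 under CO at all 6 times, SOD1 reaches 2.16 and 2.04 at 24 h, and the lines of SOD2 cross repeatedly.

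CTT1, the cytosolic catalase, rose under N2 and did not pass the test under CO. Its ratio under N2 was 0.19, 0.06, 0.90, 1.58, 0.68 and 0.38 from 15 min to 24 h. In CO the same times gave -0.11, -0.25, 0.13, 0.03, -0.25 and -0.01. The course under N2 thus had a single peak at 60 min, where CTT1 was 2.99-fold above air and higher than 98.8% of the ORFs on that array, while under CO it stayed within 0.25 of air throughout. The mean under N2 was 0.63 ± 0.17 (SE of the fit, n = 6 arrays; adjusted p = 0.0106). In CO the mean was -0.08 ± 0.17 (n = 6 arrays; limma adjusted p = 0.741), with a 95% interval of -0.43 to 0.28. The N2 call was lost when the 15 min ratios were subtracted from the later ones (0.53, adjusted p = 0.0696).

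Among the 5 genes the mean gap between the gases was widest for CTT1. CO stood below N2 by 0.30, 0.31, 0.77, 1.55, 0.93 and 0.39 from 15 min to 24 h, and at 60 min N2 was 2.93-fold above CO. Of all ORFs, 3.39% stood lower under CO at all 6 times and 2.54% higher. Of the 5 genes, CTT1 was 1 with CO lower at all 6 times, and 0 had CO higher at all of them. The mean difference, with exposure time as a block, was -0.71 ± 0.18 (95% interval -1.11 to -0.31), the 59th lowest of the 5672 ORFs. It had an unadjusted p of 0.00265 in limma and did not pass after adjustment over all ORFs (adjusted p = 0.374). In this comparison limma called 0 ORFs, 0% higher and 0% lower, although 584 had an unadjusted p under 0.05. The sources used here do not say whether the gases shared an air sample at a given time.

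CTA1, the peroxisomal catalase, stayed near air. In N2 it stood at 0.02, -0.06, -0.22, -0.63, -0.24 and 0.07 from 15 min to 24 h. In CO it stood at -0.16, -0.31, -0.28, -0.18, -0.11 and 0.53. The lowest N2 value fell at 60 min, the time at which CTT1 was highest, and the CO values were below 0 at each time but 24 h. The means were -0.18 ± 0.13 under N2 (adjusted p = 0.304) and -0.09 ± 0.13 under CO (adjusted p = 0.637), and neither passed. Their 95% intervals ran from -0.46 to 0.11 and from -0.37 to 0.20, so a mean change of 2-fold lay outside both.

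Under N2 the ratio of CTT1 stood above that of CTA1 throughout. The difference CTT1 minus CTA1 within an array was 0.17, 0.12, 1.12, 2.21, 0.92 and 0.31 under N2 and was above 0 at all 6 times. Its mean was 0.81 ± 0.33 (SE, n = 6), with p = 0.0312 in a two-sided exact sign-flip test, the smallest p that 6 times allow, and 0.125 after adjustment over the 4 tests of this kind. In CO the difference was 0.05, 0.06, 0.41, 0.21, -0.14 and -0.54, with a mean of 0.01 ± 0.13 (exact p = 1, adjusted 1). A difference of ratios compares changes, and does not say which of the catalase transcripts was the more abundant.

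CCP1, the intermembrane space peroxidase, rose in both gases by nearly the same amount. In N2 its ratio was 0.11, 0.30, 0.37, 1.43, 0.28 and 1.30 from 15 min to 24 h. In CO it was 0.10, 0.50, 0.27, 1.12, 0.87 and 1.27. The values at 60 min and 24 h were the high ones in both gases, between 2.17-fold and 2.69-fold above air, and at 120 min the N2 array gave a low value between them. The mean rose by 0.63 ± 0.20 under N2 (adjusted p = 0.0257) and by 0.69 ± 0.20 under CO (adjusted p = 0.0198). The difference between the gases was 0.06 ± 0.14 (95% interval -0.26 to 0.37, adjusted p = 0.921). The N2 call was lost without the N2 array of 60 min (0.47, adjusted p = 0.0946) or of 24 h (0.50, 0.0818), or with the 15 min ratios subtracted (0.63, 0.0602). The CO call did not hold once the CO array of 60 min (0.60, adjusted p = 0.0697), 120 min (0.65, 0.0597) or 24 h (0.57, 0.0642) was left out.

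SOD1, the copper and zinc dismutase, had the largest mean of the 5 genes in both gases. In N2 its ratio was 0.23, 0.04, 0.82, 1.07, 1.90 and 2.16 from 15 min to 24 h. In CO it was 0.59, 0.41, 0.75, 0.68, 0.23 and 2.04. The N2 values were higher at each step from 30 min on, whereas the CO values lay between 0.23 and 0.75 up to 120 min and were high at 24 h alone. At 24 h SOD1 was 4.47-fold above air under N2 and 4.11-fold under CO, and higher than 95% and 96% of the ORFs on those arrays.

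The mean of SOD1 rose by 1.04 ± 0.28 under N2 (limma adjusted p = 0.0112) and by 0.78 ± 0.28 under CO (adjusted p = 0.0444). They ranked 215th and 367th from the highest of 5672 ORFs. The CO call was close to the threshold. It was lost without any single CO array (adjusted p of 0.0546 to 0.151, the highest without 24 h, where the mean was 0.53), without the N2 array of 45 min (0.0567) or 60 min (0.0562), and with the 15 min ratios subtracted (0.23, adjusted p = 0.616). At 120 min N2 was 3.18-fold above CO, yet over the 6 times the difference of CO minus N2 was -0.25 ± 0.24 (95% interval -0.80 to 0.29, adjusted p = 0.73), and without the pair of 120 min it was 0.03.

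SOD2, the matrix dismutase, gave values on both sides of 0. In N2 its ratio was 0.00, -0.18, 0.85, -0.04, -0.80 and 0.87 from 15 min to 24 h. In CO it was 0.45, 0.90, -0.13, 0.64, -0.74 and 0.22. The gases stood on opposite sides of air at 30, 45 and 60 min, and both were low at 120 min, where SOD2 was 0.574 of the air level under N2 and 0.599 under CO. The means were 0.12 ± 0.23 under N2 (adjusted p = 0.71) and 0.22 ± 0.23 under CO (adjusted p = 0.469). The intervals, -0.38 to 0.61 and -0.27 to 0.72, were wider than those of every gene of the 5 but SOD1.

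Between the dismutases, SOD2 minus SOD1 was -0.23, -0.22, 0.03, -1.11, -2.70 and -1.29 under N2 from 15 min to 24 h. In CO it was -0.14, 0.49, -0.88, -0.04, -0.97 and -1.82. SOD2 stood below SOD1 at each time but 45 min under N2 and but 30 min under CO. The mean was -0.92 ± 0.42 under N2 (exact sign-flip p = 0.0625) and -0.56 ± 0.34 under CO (exact p = 0.156). After adjustment over the 4 tests these were 0.125 and 0.208, so neither passed.

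**Figure D2:**
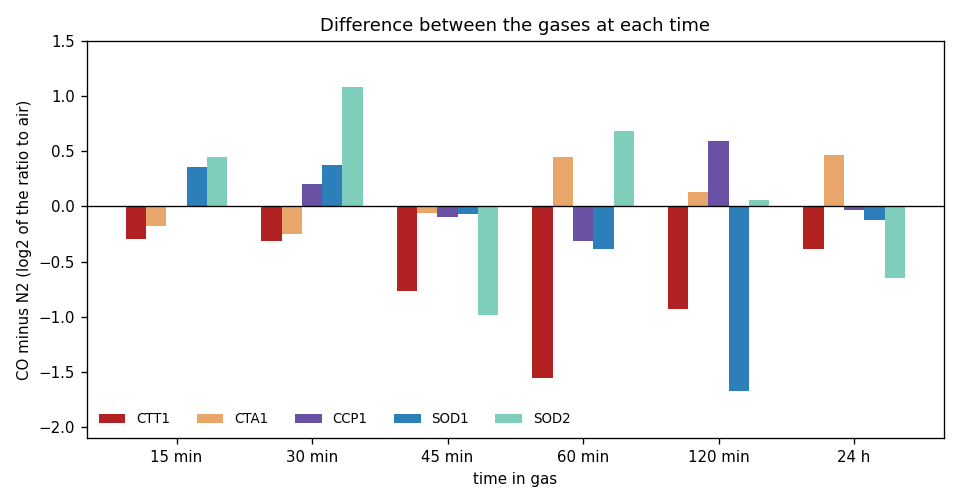
CO minus N2 of the log2 ratio to air (y axis) at each exposure time (x axis), with 1 bar per gene and 1 array per gas behind each bar. The bars of CTT1 point down at all 6 times and reach -1.55 at 60 min, and the longest bar is that of SOD1 at 120 min (-1.67).

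The remaining differences between the gases were small beside their spread. The mean of CO minus N2 was 0.09 ± 0.14 for CTA1 (95% interval -0.22 to 0.41, adjusted p = 0.855) and 0.11 ± 0.25 for SOD2 (-0.46 to 0.67, adjusted p = 0.915). SOD2 had the more variable difference, from -0.98 at 45 min to 1.08 at 30 min. None of the 5 genes was called between the gases, and these intervals leave room for a mean difference of either sign.

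Over time, SOD1, CCP1 and CTA1 rose at 24 h against the earlier times. This comparison set the 24 h arrays of both gases against the mean of 15 and 30 min, 45 min, and 60 and 120 min, with gas as a term. A constant dye effect cancels in it. The 24 h arrays are 1 exposure time in each gas, paired by the labels (r = 0.746 between their deviations over ORFs), and the fit counted them as 2. SOD1 rose by 1.41 ± 0.31 (adjusted p = 0.0031), CCP1 by 0.79 ± 0.25 (adjusted p = 0.0217) and CTA1 by 0.52 ± 0.19 (adjusted p = 0.0393). CTT1 stood at -0.15 ± 0.26 (adjusted p = 0.67) and SOD2 at 0.41 ± 0.40 (adjusted p = 0.429). Hence 3 of the 5 were called higher and 0 lower, where 22.5% of all ORFs were called higher and 25.1% lower. In both gases the 24 h value lay above the 5 earlier ones for 2 of the 5, SOD1 and CTA1, and for 21.2% of all ORFs. For CTA1 the gap was narrow under N2, with 0.07 at 24 h and 0.02 at 15 min. In CO its 24 h value was 0.53 and its highest earlier one -0.11. CCP1 under N2 was lower at 24 h (1.30) than at 60 min (1.43). With exposure time as a random block, an alternative chosen after seeing the data, the same 3 were called (limma adjusted p = 0.00358 for SOD1, 0.023 for CCP1 and 0.0427 for CTA1). The correlation that limma estimated within a time was 0.023, so this fit was close to the one without the block. It therefore does not settle how far counting the 24 h arrays as 2 mattered. All 3 calls were lost with quantile normalization, which gives every array the same spread (SOD1 0.32, adjusted p = 0.573; CCP1 0.16, 0.759; CTA1 0.48, 0.156). Array weights ended those of CCP1 (0.81, adjusted p = 0.0959) and CTA1 (0.52, 0.158). With the CO array of 24 h left out, CTA1 was at 0.30 (adjusted p = 0.363) and CCP1 at 0.84 (0.0869), and without the N2 array of 24 h CCP1 was at 0.73 (0.137). CTA1 also missed the threshold when the CO array of 15 min (0.51, adjusted p = 0.0616), 30 min (0.49, 0.0527) or 45 min (0.49, 0.0791) or the N2 array of 45 min (0.55, 0.0514) was left out.

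Within the first 2 hours none of the 5 passed. At 60 and 120 min against 15 and 30 min, 3.44% of all ORFs were called higher and 9.29% lower. The difference was 0.67 ± 0.23 for CCP1 (adjusted p = 0.0692), 0.65 ± 0.28 for SOD1 (adjusted p = 0.142) and 0.54 ± 0.24 for CTT1 (adjusted p = 0.152). CTA1 stood at -0.16 ± 0.17 (adjusted p = 0.547) and SOD2 at -0.53 ± 0.36 (adjusted p = 0.349). CCP1 passed with array weights (0.74, adjusted p = 0.0218) and without the N2 array of 120 min (0.90, adjusted p = 0.0286).

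**Figure D3:**
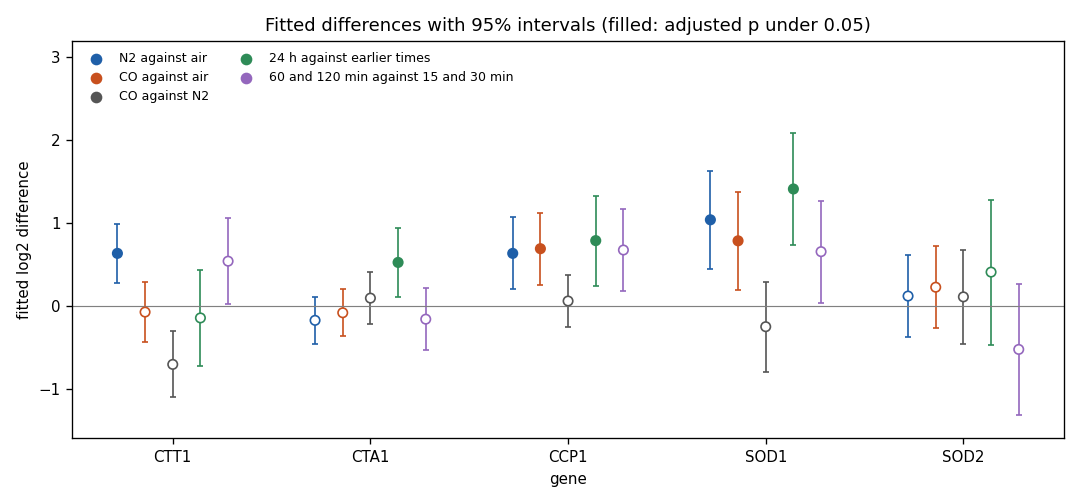
Fitted log2 difference (y axis) of each gene (x axis) in the 5 comparisons, as points with 95% intervals from limma; filled points had an adjusted p under 0.05. SOD1 and CCP1 are filled in both gases and at 24 h, CTT1 under N2 and CTA1 at 24 h.

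Among 8 other peroxidases, which reduce peroxides with thiols in place of heme, 2 rose under N2, 1 under CO and 0 fell. Their medians were 0.14 and 0.15. Of all ORFs, 17.6% were called higher under N2 and 12.7% under CO, with medians of -0.02 and -0.04. GPX1 (YKL026C), a glutathione peroxidase, rose by 0.73 ± 0.23 under N2 and by 1.22 ± 0.23 under CO, with adjusted p = 0.0229 and 0.00216. TSA2 (YDR453C), a minor cytosolic peroxiredoxin, rose by 0.65 ± 0.18 under N2 (adjusted p = 0.0127) and stood at 0.36 under CO (adjusted p = 0.13). The major peroxiredoxins TSA1 (YML028W) and AHP1 (YLR109W) stood at -0.15 and 0.04 under N2 and at -0.09 and -0.02 under CO. The N2 call of GPX1 was lost without the N2 array of 45 min (0.57, adjusted p = 0.0833) or 60 min (0.55, 0.0848) and with the 15 min ratios subtracted (0.45, 0.18), as was that of TSA2 (0.19, 0.534).

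Of 8 genes that mature, metallate or import the enzymes, 3 rose under N2, 2 under CO and 0 fell, with medians of 0.35 and 0.43. The shares of all ORFs called higher were 17.6% under N2 and 12.7% under CO. CCS1 (YMR038C), the chaperone that loads copper into Sod1, rose under N2, as SOD1 did, by 1.07 ± 0.17 (adjusted p = 0.00084). Its 6 N2 values lay between 0.51 and 1.67. In CO it rose by 0.56 ± 0.17 (adjusted p = 0.0222), with 0.36 to 1.30 up to 120 min and -0.02 at 24 h, where SOD1 was at its highest. This CO call was lost without the CO array of 30, 60 or 120 min (adjusted p of 0.0529 to 0.0859) and with the 15 min ratios subtracted (0.24, 0.372). SMF2 (YHR050W), a manganese transporter that supplies Sod2, rose by 1.04 ± 0.23 under N2 and by 0.94 ± 0.23 under CO (adjusted p = 0.00451 and 0.00895), while SOD2 itself was called in neither. PCP1 (YGR101W), the rhomboid protease that processes Ccp1, rose by 0.78 ± 0.24 under N2 (adjusted p = 0.0229) and stood at 0.58 under CO (adjusted p = 0.08). The PCP1 call was lost without the N2 array of 45 min (0.67, adjusted p = 0.0758) or 24 h (0.49, 0.0664), with the N2 arrays alone (0.0558) and with the 15 min ratios subtracted (0.0587).

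Of 12 regulators known for these genes, 4 fell in each gas and 0 rose, with medians of -0.25 under N2 and -0.29 under CO. Of all ORFs, 20.2% were called lower under N2 and 19.4% under CO, with medians of -0.02 and -0.04. MSN2 (YMR037C), an activator of stress genes such as CTT1, fell by 0.82 ± 0.19 in both gases (adjusted p = 0.00582 under N2 and 0.00668 under CO). OAF1 (YAL051W) and PIP2 (YOR363C), the fatty acid activators of peroxisomal genes such as CTA1, fell by 0.83 ± 0.20 and 0.47 ± 0.14 under N2 and by 0.74 ± 0.20 and 0.43 ± 0.14 under CO. HAP1 (YLR256W), known as a heme-dependent activator of CTT1, fell by 0.54 ± 0.15 under CO and by 0.42 ± 0.15 under N2 (adjusted p = 0.0172 and 0.044). Whether Hap1 is active in BY4741 was not tested. With the 15 min ratios subtracted, MSN2 (adjusted p = 0.136 under N2 and 0.401 under CO), OAF1 (0.0611 and 0.442) and, under CO, PIP2 (0.212) lost their calls. PIP2 was lost without the N2 array of 45 min, 120 min or 24 h under N2 (up to 0.0625) and without the CO array of 45, 60 or 120 min or 24 h under CO (up to 0.1). HAP1 was lost without the CO array of 45 or 120 min under CO (up to 0.0617). In N2 it was lost under 11 of 19 alternatives, 7 of them a single array left out (up to 0.154). YAP1 (YML007W), the main peroxide regulator, stood at -0.18 under N2 and 0.04 under CO and passed in neither, as did HAP4 (YKL109W), SKN7 (YHR206W), ADR1 (YDR216W) and MSN4 (YKL062W). The mean of HAP4 joined values of -1.28 to -0.53 up to 60 min with 2.03 under N2 and 1.79 under CO at 24 h. At 60 and 120 min against 15 and 30 min, 1 of the 12 was called higher, beside 3.44% of all ORFs. This was MSN4 (0.85 ± 0.20, limma adjusted p = 0.0232), whose call was lost in 4 of 18 alternatives (up to 0.0705).

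Among 5 tested genes at which peroxide or superoxide arises or is used, 1 rose in each gas, and the medians were -0.22 under N2 and 0.19 under CO. Over all ORFs, 17.6% were called higher under N2 and 12.7% under CO. The gene that rose in both gases was CYC7 (YEL039C), the hypoxic cytochrome c. It rose by 1.10 ± 0.32 under N2 and by 1.23 ± 0.32 under CO (limma adjusted p = 0.0166 and 0.0115). The N2 call was lost without the N2 array of 120 min (0.86, adjusted p = 0.0652) or 24 h (0.95, 0.0523). POX1 (YGL205W), the peroxisomal oxidase whose hydrogen peroxide Cta1 removes, stood at -0.25 under N2 and 0.12 under CO and passed in neither. CYC1 (YJR048W), the aerobic cytochrome c and electron donor of Ccp1, had a value on 10 arrays and was left out of these counts.

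Of 6 stress genes known to share regulators with CTT1, 1 rose under N2 and 0 passed under CO, and the medians were 0.23 and 0.35. For comparison, 17.6% of all ORFs were called higher under N2 and 12.7% under CO. HSP12 (YFL014W), a small membrane-protecting protein, was the gene called under N2, at 0.88 ± 0.26 (limma adjusted p = 0.0186). It stood at 0.34 under CO (adjusted p = 0.326). Of the 6, HSP26 (1.84) and HSP104 (0.62) had their highest N2 ratio at 45 min, SSA3 (0.84) and PGM2 (0.78) at 60 min, TPS1 (0.84) at 120 min and HSP12 (2.26) at 24 h. The N2 call of HSP12 was lost without the N2 array of 120 min (0.78, adjusted p = 0.0629) or 24 h (0.61, 0.059) and with the 15 min ratios subtracted (0.48, 0.269). HSP104 (YLL026W) and SSA3 (YBL075C), stress chaperones, stood at 0.07 and -0.16 under N2 and at -0.03 and -0.08 under CO.

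**Figure D4:**
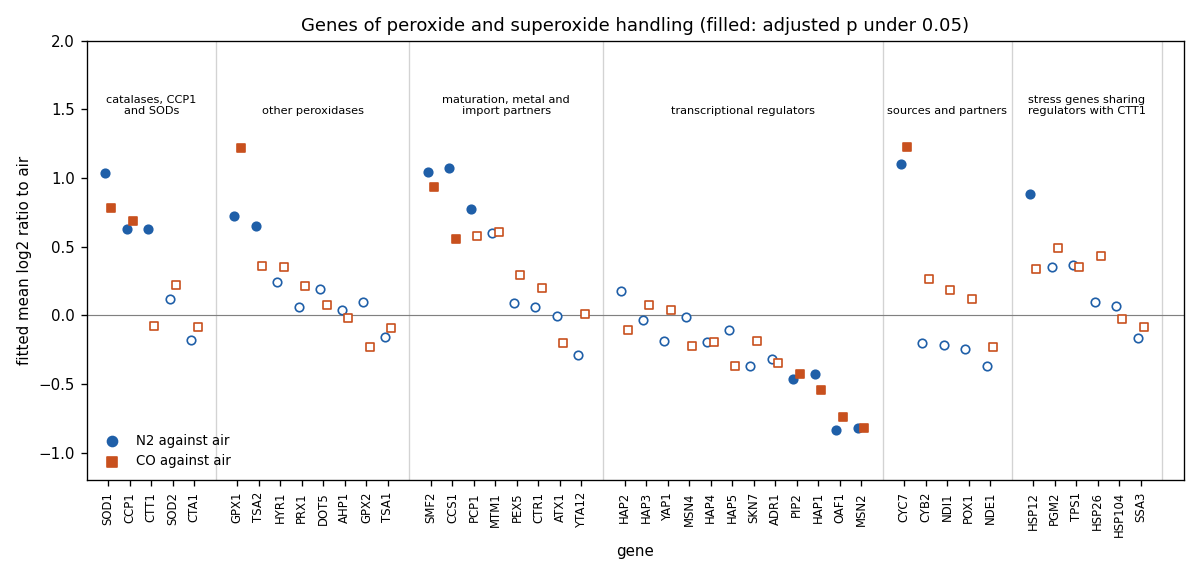
Fitted mean log2 ratio to air (y axis) of the tested genes of each list (x axis), N2 as circles and CO as squares, filled where the limma adjusted p was under 0.05. Filled points lie above 0 in every list but that of the regulators, where they lie below.

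Genes whose ratios ran most like those of each of the 5 were found by Pearson's r over the 12 arrays, which share exposure times and possibly air samples; the values are descriptions. For CTT1 these were IZH1 (YDR492W, r = 0.808), VRL1 (YML002W, r = 0.8) and STF2 (YGR008C, r = 0.791). IZH1, a membrane protein of zinc homeostasis, had means of 0.96 under N2 and 0.17 under CO. For CTA1 they were MMS22 (YLR320W) and SOA1 (YIL166C), both at r = 0.93, and YNL303W (r = 0.928). For CCP1 they were RAM2 (YKL019W, r = 0.964), a farnesyltransferase subunit, the phosphatase gene SIT4 (YDL047W, r = 0.931) and FMP46 (YKR049C, r = 0.921). RAM2 had means of 0.65 under N2 and 0.72 under CO. For SOD1 they were LRP1 (YHR081W, r = 0.94), a nuclear exosome factor, CUP1-2 (YHR055C, r = 0.927), a copper metallothionein, and the mitochondrial ribosomal gene MRPL31 (YKL138C, r = 0.925). CUP1-2 has a near-identical copy beside it, so its ratio may hold signal from both. For SOD2 they were SOP4 (YJL192C, r = 0.966), SNO2 (YNL334C, r = 0.873) and ACP1 (YKL192C, r = 0.847), the mitochondrial acyl carrier protein. Among the 5 themselves the closest pair was SOD1 and CCP1 (r = 0.496) and the most opposed CTT1 and CTA1 (r = -0.503).

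The neighbours of the 5 genes on their chromosomes went in both directions. CCP1 lies beside PAM17 (YKR065C), an import motor subunit, which rose by 0.60 ± 0.16 under N2 and by 0.65 ± 0.16 under CO (adjusted p = 0.0105 and 0.00836). Its other neighbour, GPT2 (YKR067W), passed in neither gas. SOD1 lies between URA8 (YJR103W), a CTP synthase gene that rose by 0.97 ± 0.22 under N2 and by 0.89 ± 0.22 under CO, and ADO1 (YJR105W), adenosine kinase, which fell by 0.67 ± 0.22 under N2. CTT1 lies between PDC6 (YGR087C), at 0.18 under N2 and 0.13 under CO with neither passing, and NNF2 (YGR089W), which fell by 1.17 ± 0.19 under N2 and by 1.10 ± 0.19 under CO. CTA1 lies between RMD5 (YDR255C), a ubiquitin ligase subunit that rose by 0.74 ± 0.22 under N2 and by 0.73 ± 0.22 under CO, and RKM4 (YDR257C), which fell by 0.50 ± 0.18 under N2. For SOD2, TDA3 (YHR009C) passed in neither gas, and the neighbour on the other side was not analysed here.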

How the data were processed

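The authors deposited 1 table of log2 ratios, to 2 decimals, with 1 value per ORF and array; per the labels, Cy5 carried the gas and Cy3 the air sample. Background correction, normalization, centring, probe sequences and signal over background were not stated in any source, so dim spots could not be set apart. Of 6150 ORFs, 5651 matched the locus tags of the R64 annotation, used for symbols and neighbours alone; coordinates are not printed, since no source names the array's build. The 5672 ORFs with 12 values were fitted with limma 3.58.1 in R 4.3.3, with 10 residual degrees of freedom for each gas against air, 5 for CO against N2 with exposure time as a block, and 7 for the comparisons over time. The labels pair the gases by time, and their deviations correlated at r of 0.255 to 0.776 at matching times. The fits were tested on simulated data with independent normal noise on each array. That noise held no trend over time and no link between the gases at a time, so the test covers neither.

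The 5 genes and the lists were chosen with earlier results of these data known. Named genes were the 5, the 3 with the highest r to each (among ORFs with at least 0.5 of its SD), chromosomal neighbours, and up to 4 from each list with the largest mean among those called; TSA1, AHP1, YAP1, HAP4, SKN7, ADR1, MSN4, POX1, CYC1, HSP104 and SSA3 were named after their values were seen. List entries whose symbol differed from the annotation (YTA10, DDR2) were left out, and CUP2 is not analysed here. The promoter motifs planned were not searched, as no promoter sequences were used here. Alternatives were median centring, quantile normalization, ORFs with at least 10 values, array weights, each array left out, the gas's arrays alone, exposure time as a block or not, 15 min ratios subtracted, no term for gas and, chosen after seeing the data, exposure time as a random block (duplicateCorrelation) in the comparisons over time.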

Additional observations from a re-analysis of the deposited data

Results flagged for a closer look

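In a group of 6 arrays, a value stood far from the rest in 2 of the 14 groups examined (each of the 5 genes and both isozyme differences, in each gas); by chance about 1 such group in 20 is seen where values are repeats of each other. Of all 5672 ORFs, 19.6% had such a value under N2 and 15.7% under CO, and in 5.55% under CO it was a high one at 24 h, as it was in both cases here. CTA1 in CO was 0.53 at 24 h, while its 5 earlier values lay between -0.31 and -0.11. SOD1 in CO was 2.04 at 24 h, while its 5 earlier values lay between 0.23 and 0.75. Both are values of 1 array, the one with the widest spread over ORFs in that gas (SD 1.19), and the part of that spread in them was not tested. The arrays of a group are different exposure times, not repeats of one.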

How the results depend on the processing

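Of 455 values of a single gene in 1 comparison under another setting, 408 kept their direction and their side of the threshold, 28 lost a call, 2 gained one and 17 changed sign, 0 of them from a called value. With the 15 min ratios subtracted, the CO values of CTT1, CTA1 and SOD2 became 0.04, 0.09 and -0.27; between the gases CTA1 became -0.0013 with quantile normalization and -0.0054 with array weights. With an array left out, SOD2 ranged from -0.034 to 0.30 under N2. Between the gases CCP1 ranged from -0.05 to 0.13, SOD1 from -0.378 to 0.03 and SOD2 from -0.088 to 0.324, and at 24 h CTT1 ranged from -0.3385 to 0.0435 and SOD2 from -0.0482 to 0.8598.

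Of the 5 genes, 1 was called under N2 and 1 under CO with the 15 min ratios subtracted. At 24 h, 0 were called with quantile normalization and 1 with array weights, and at 60 and 120 min 1 with array weights. With an array left out the number called was 0 to 2 under CO, 1 to 3 at 24 h and 0 to 1 at 60 and 120 min. Over all ORFs, exposure time as a block raised the calls from 2147 to 3337 under N2 and from 1818 to 3168 under CO; it changed no call of the 5 genes, and without the block between the gases 0 ORFs were called either way. The 15 min subtraction gave 1030 and 1107 calls. Median centring gave 1 call between the gases. Quantile normalization gave 727 calls at 24 h and 151 at 60 and 120 min, and array weights 1675 and 1377, against 2703 and 722. Leaving out an array gave 1141 to 2355 calls under CO and 110 to 895 at 60 and 120 min. The causes were not tested. Exposure time as a random block, added after seeing the data, gave 2662 calls at 24 h and 646 at 60 and 120 min and changed no call of the 5 genes. With an estimated correlation within a time of 0.023, that block could change little. With 1 time left out, CTT1 minus CTA1 ranged from 0.528 to 0.946 under N2 and from -0.072 to 0.118 under CO, and SOD2 minus SOD1 from -1.11 to -0.564 and from -0.77 to -0.308; the exact test on 5 times cannot go below p = 0.0625. The promoter search was not run.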

Other observations

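At 24 h against the earlier times, genes around these enzymes moved in both directions; those named here and not before were chosen after their values were seen. Of the 8 genes that mature, metallate or import the enzymes, 5 rose at 24 h, where 22.5% of all ORFs were called higher. With quantile normalization 2 of the 5 calls were left, those of MTM1 and CTR1, and SMF2 (0.10, adjusted p = 0.822), PCP1 (0.38, 0.351) and PEX5 (0.33, 0.349) missed the threshold. SMF2 was also lost without the CO array of 24 h (0.91, adjusted p = 0.0616), and PEX5 in 10 of 18 alternatives. MTM1 (YGR257C), a mitochondrial carrier needed for active Sod2, rose by 2.27 ± 0.20 (limma adjusted p = 9.48e-06). Its values up to 60 min lay between -0.05 and 0.29. It stood at 0.79 under N2 and 0.52 under CO at 120 min, and at 2.52 and 2.42 at 24 h. CTR1 (YPR124W), the high-affinity copper transporter, rose by 1.80 ± 0.28 (adjusted p = 0.000302), from -0.91 and -0.92 at 120 min to 1.41 and 1.96 at 24 h. SOD2, the enzyme that MTM1 serves, stood at 0.87 and 0.22 at 24 h, and its comparison did not pass.

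The stress genes that share regulators with CTT1 went mainly the other way at 24 h. Of the 6, 4 were lower and 1 higher, beside 25.1% and 22.5% of all ORFs. With quantile normalization 2 were lower, HSP26 and SSA3, and 0 higher, while HSP104 (-0.67, adjusted p = 0.105), PGM2 (-0.81, 0.12) and HSP12 (0.37, 0.51) lost their calls. PGM2 was also lost with array weights (-0.84, adjusted p = 0.125) and without the CO array of 24 h (-0.60, 0.193), and HSP12 with array weights (1.16, 0.074) and without the N2 array of 24 h (0.75, 0.236). HSP26 (YBR072W), a small heat shock chaperone, fell by 2.85 ± 0.43 (adjusted p = 0.000288), and stood at -2.57 under N2 and -1.52 under CO at 24 h. SSA3 (YBL075C) fell by 2.24 ± 0.26 (adjusted p = 5.56e-05), to -1.92 and -2.05. CTT1 itself was at 0.38 and -0.01. Of the 12 regulators, 2 were called higher at 24 h and 4 lower, beside 22.5% and 25.1% of all ORFs. HAP4 (YKL109W), the activator subunit for respiratory genes, rose by 2.54 ± 0.24 (adjusted p = 1.45e-05). Its DNA-binding partners went in both directions. HAP2 (YGL237C) fell by 1.49 ± 0.18 (adjusted p = 7.28e-05), and HAP3 (YBL021C) rose by 0.83 ± 0.22 (adjusted p = 0.00866). The HAP3 call was lost with quantile normalization (0.51, adjusted p = 0.145) and without the N2 array of 24 h (0.38). Of the 8 other peroxidases, 1 was called higher at 24 h and 0 lower, beside 22.5% and 25.1% of all ORFs. It was DOT5 (YIL010W), a nuclear thiol peroxidase, which rose by 1.01 ± 0.17 (adjusted p = 0.000521). The calls of MTM1, CTR1, HSP26, SSA3, HAP4, HAP2 and DOT5 held under all 18 alternatives run.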
